A study of Mus musculus with 2 samples.

Results

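The barcodes described here were chosen by their own counts, so their high haemoglobin share and low gene number are no findings. Each had 1000 or more unique molecular identifiers (UMIs), which count captured RNA molecules, at least 50 and under 300 detected genes, and 80% or more of its UMIs from the 10 haemoglobin genes. In mouse spleen under chronic anaemia, 2539 such barcodes were found among the 9429 barcodes of 1000 or more UMIs in the PHZ library, and 2991 among 13075 in the bleeding library, 5530 of 22504 in all. C57BL/6 mice, with no engineered allele named, had received PHZ injections or had been bled at intervals of 3 days for 1 month, and live spleen cells were run with 10x Genomics 3' chemistry version 3.1. PHZ is the usual abbreviation of phenylhydrazine, an agent that oxidises haemoglobin and lyses red cells. There was no untreated library. Mouse age and number, any pooling of animals and any removal of red cells were not given in the sources used here. Each treatment was 1 library, so no test between treatments was possible. The 95% intervals below cover counting error only, and treatment and library cannot be told apart.

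Reticulocytes are young red cells that have lost their nucleus but still carry RNA, mostly for alpha and beta globin, which pair to form haemoglobin. As they mature they clear ribosomes, mitochondria and other organelles by autophagy and ubiquitin-dependent proteolysis, and cannot replace the RNA they lose. In the mouse the spleen is a site of stress erythropoiesis as well as of red cell clearance.

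Because the main finding below rests on the split of RNA between alpha and beta globin genes, the 250 bases before the RefSeq start of these genes (GRCm38.p6) are shown first. Hba-a1 and Hba-a2 encode alpha globin, and Hbb-bs and Hbb-bt encode adult beta globin. The windows are chr11:32283422-32283671 on the plus strand for Hba-a1, chr7:103827929-103828178 on the minus strand for Hbb-bs and chr7:103813924-103814173 on the minus strand for Hbb-bt. Capitals mark matches, on either strand, to CCAAT (the CCAAT box), to CACCC (bound by KLF factors), to ATATAA (which lies near the start) and to GATAAG (bound by GATA factors).
Hba-a1: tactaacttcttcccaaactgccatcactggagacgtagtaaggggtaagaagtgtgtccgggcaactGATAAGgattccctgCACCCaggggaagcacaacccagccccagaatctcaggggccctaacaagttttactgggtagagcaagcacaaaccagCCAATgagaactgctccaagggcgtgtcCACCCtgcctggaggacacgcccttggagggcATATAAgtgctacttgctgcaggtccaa
Hbb-bs: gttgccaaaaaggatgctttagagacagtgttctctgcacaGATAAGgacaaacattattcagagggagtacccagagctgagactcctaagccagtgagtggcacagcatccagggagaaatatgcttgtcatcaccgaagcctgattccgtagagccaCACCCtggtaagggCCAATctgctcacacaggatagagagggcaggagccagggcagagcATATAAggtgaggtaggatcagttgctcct
Hbb-bt: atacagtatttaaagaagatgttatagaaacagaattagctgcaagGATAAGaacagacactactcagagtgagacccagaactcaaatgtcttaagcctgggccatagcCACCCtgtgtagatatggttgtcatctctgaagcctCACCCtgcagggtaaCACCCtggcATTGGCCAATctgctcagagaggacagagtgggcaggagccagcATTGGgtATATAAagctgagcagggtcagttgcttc
The Hba-a2 window (chr11:32296242-32296491, plus strand) was the same sequence over 247 of 247 aligned bases, while those of Hbb-bs and Hbb-bt matched at 51.0% of bases aligned without gaps. In Hbb-bt a reverse match to CCAAT lies directly before the forward one. All 4 windows held each of the 4 motifs. Among 32851 promoter windows of this length, CCAAT was in 33.8%, CACCC in 52.0%, ATATAA in 9.10% and GATAAG in 6.55%. Copies were also close in the transcript ends that 3' counting reads. Of the runs of 50 bases in the last 300 bases of the main Hba-a2 transcript, 73.7% were also in the main Hba-a1 transcript, against 36.3% for Hbb-bt in Hbb-bs, so that counts could be split wrongly between Hba-a1 and Hba-a2 in particular. The sums over alpha and over beta genes do not depend on that split, but would miss any reads left out because they match both copies. Such a loss could lower the alpha sum more than the beta sum, and it was not tested.

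Apart from 1 macrophage list, the markers did not go against the reticulocyte label. Outside haemoglobin, the highest genes included Bpgm (bisphosphoglycerate mutase, which lowers the oxygen affinity of haemoglobin), Mkrn1 (a ubiquitin ligase), Alas2 (the first enzyme of erythroid haem synthesis), Bnip3l (a receptor for mitochondrial clearance) and Tent5c (a poly(A) polymerase). Levels are given as UMIs scaled to a total of 1000000 UMIs outside haemoglobin genes (CPM), summed over the barcodes of a library. Bpgm was at 35151 CPM in PHZ and 47856 in bleeding. Alas2 was at 24255 and 24805 CPM, and at least 1 Alas2 UMI was found in 98.0% and 99.1% of barcodes. Markers of other spleen cells (60 genes of B, plasma, T or NK cells and neutrophils together) stood at 20.5% and 21.2% of their level in background barcodes of 10 to 100 UMIs, which hold free RNA. The 18 monocyte or macrophage genes did not share this, at 174% in PHZ and 93.7% in bleeding, and most of their sum was Ctsb, a lysosomal protease that many cell types express, at 837 and 858 CPM. The 28 genes of proliferating erythroblasts stood at 15.4% and 17.2% of that level, and each of the 28 was below its background level in both libraries. The nuclear RNA Malat1 was at 1117 and 1194 CPM.

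The haemoglobin-dominated barcodes made up 26.9% (95% Clopper-Pearson interval 26.0 to 27.8) of PHZ barcodes with 1000 or more UMIs and 22.9% (22.2 to 23.6) of bleeding barcodes, a ratio of 1.18 (1.12 to 1.24). As a share of barcodes with 80% or more haemoglobin the order turned, with 59.7% in PHZ and 63.1% in bleeding (ratio 0.946, 0.897 to 0.998). The gene limit did most of the choosing: of 2618 PHZ and 3047 bleeding barcodes with under 300 genes, 73 and 47 were under 80% haemoglobin and 6 and 9 had under 50 genes. They held 32.3% of all haemoglobin UMIs of the PHZ library and 44.6% of those of the bleeding library. PHZ barcodes were shallower, with a median of 8775 UMIs and 182 genes against 10938 UMIs and 228 genes. Thinned to 1000 UMIs each, they had a median of 43 and 45 genes. The median haemoglobin share was 94.4% and 94.2%, a description only, since the rule used it. Within 20 genes inside the upper gene limit Bpgm was at 36971 CPM in PHZ and 43855 in bleeding, and within 20 genes outside it at 37551 and 43523. From 80 to under 82% haemoglobin there were 9 and 4 members, and 8 and 3 barcodes lay from 78 to under 80%. In all, 2 barcode sequences were members in both libraries.

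The 2 libraries split their haemoglobin RNA differently. Hbb-bs took 53.4% of haemoglobin UMIs in PHZ and 50.6% in bleeding, and Hbb-bt took 11.9% and 14.0%. Hbb-bt over Hbb-bs was therefore 0.224 in PHZ and 0.277 in bleeding, with counting intervals that do not overlap (0.223 to 0.224 and 0.276 to 0.277). In haemoglobin-rich barcodes with 300 to under 500 genes the same ratio was closer, at 0.320 and 0.332. Alpha over beta UMIs were 0.531 in PHZ and 0.548 in bleeding, against 0.616 and 0.606 at 300 to under 500 genes. Embryonic globins were almost absent. Hbb-y, an embryonic beta-like globin, had 4 UMIs in PHZ and 53 in bleeding, Hbb-bh1 had 0 and 1, and Hba-x and Hbb-bh2 had 0 in both. Of the theta-like genes, Hbq1b had 649 and 857 UMIs and Hbq1a 363 and 929.

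A low tail of alpha over beta globin UMIs was far commoner in the PHZ library. Barcodes with under 0.4 alpha UMIs per beta UMI, a limit set after the values were seen, numbered 340 of 2539 in PHZ (13.4%, 12.1 to 14.8) and 57 of 2991 in bleeding (1.91%, 1.45 to 2.46), 7.03 times the share. They are a range of a continuous measure and not a type. In PHZ 38 barcodes lay between 0.38 and 0.4 and 86 between 0.4 and 0.42, and in bleeding 27 and 44. Below 0.3 there were 153 in PHZ and 11 in bleeding. The high end was also commoner in PHZ, though by less. At 0.7 or more there were 176 in PHZ (6.93%, 5.97 to 7.99) and 135 in bleeding (4.51%, 3.80 to 5.32). From 0.5 to under 0.6 lay 35.2% of PHZ and 54.1% of bleeding barcodes. The tail thinned out with more genes: among barcodes of 300 to under 500 genes 17 of 1275 were under 0.4 in PHZ and 0 of 1484 in bleeding, which allows a share of up to 0.202% (3 counts of that total). The alpha-poor PHZ barcodes were shallower than the rest, with a median of 6377 against 9222 UMIs. Within ranges of depth the libraries also differed, though least in the shallowest barcodes. Under 5000 UMIs the share was 27.3% (22.8 to 32.3) in PHZ and 14.5% (9.63 to 20.7) in bleeding, and this range held 25 of the 57 alpha-poor bleeding barcodes. The share was 17.5% (15.4 to 19.8) in PHZ and 2.92% (1.86 to 4.34) in bleeding among barcodes of 5000 to under 10000 UMIs, and 2.73% (1.79 to 3.98) and 0.443% (0.203 to 0.840) at 10000 or more. Hbb-bt over Hbb-bs was low in these alpha-poor barcodes, with a median of 0.136 against 0.225 in other PHZ barcodes and 0.123 against 0.281 in bleeding. Hbb-bs makes up most of the beta sum and enters both ratios, so this is no separate finding. The ratios alone do not tell less alpha globin RNA from more Hbb-bs RNA.

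The alpha-poor PHZ barcodes carried RNA of the HSP90 chaperone system. Hsp90ab1 (chr17:45567775-45573271, minus strand, GRCm38), a constitutive HSP90 that folds client proteins, was at 29510 CPM in them and at 959 CPM in the other PHZ barcodes, a ratio of 30.8 (28.8 to 32.9). Hsp90aa1, its inducible partner, was at 11857 and 320 CPM (37.0-fold, 33.1 to 41.5). St13, a co-chaperone that links HSP70 to HSP90, was at 716 and 25.5 CPM (28.0-fold, 18.6 to 43.7). These 3 genes had the highest lower bounds among the 989 genes compared within PHZ, where 32 (3.24%) were higher and 87 (8.8%) lower in alpha-poor barcodes by an interval beyond 1.5-fold. The other genes of this paragraph were picked after their values were seen, and not strictly by rank. Hspa8, the constitutive HSP70, was 6.32-fold higher and Dnaja1, an HSP40 co-chaperone, 6.01-fold. Snhg1 and Gas5, hosts of small nucleolar RNAs, were 6.37-fold and 4.21-fold higher, 2410006H16Rik was 6.66-fold, Zfas1 4.65-fold and Chchd2 3.34-fold higher, and Ubb, which encodes ubiquitin, was at 105095 against 40248 CPM (2.61-fold). The heat-inducible HSP70 genes Hspa1a and Hspa1b had 0 UMIs in alpha-poor PHZ barcodes and 3 and 1 in the others, too few to compare. By the interval bound nearest 1, lower genes were led by Gpx4 (a lipid peroxide reductase, 140 against 688 CPM), Gm32051, Rexo2 and Cox6b2, each at 0.203 to 0.241 of the level of the other barcodes. In the 57 alpha-poor bleeding barcodes Hsp90ab1 was at 1917 CPM from 35 UMIs, against 273 CPM in the other bleeding barcodes (7.02-fold, 4.83 to 9.89). Of these 57 barcodes 1 had 5 or more Hsp90ab1 UMIs. The 6 bleeding barcodes with 5 or more had a median of 0.518 alpha per beta UMI, against 0.545 in the others. Across bleeding barcodes the Spearman correlation of the Hsp90ab1 share outside haemoglobin with alpha over beta was 0.004, against -0.244 in PHZ.

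The same association can be described by barcode, which adds no separate evidence. Hsp90ab1 UMIs were concentrated: 166 PHZ barcodes with 5 or more UMIs, up to 155 in a single barcode, held 88.0% of all Hsp90ab1 UMIs of the PHZ barcodes, while 6 bleeding barcodes held 10.7%. Of those 166, 130 (78.3%) were under 0.4 alpha per beta UMI, against 8.85% of the other PHZ barcodes, and their median ratio was 0.279 against 0.542. Hsp90aa1 was detected in 76.5% of them and in 9.48% of the others. Not every alpha-poor barcode was of this kind, since 130 of 340 had 5 or more Hsp90ab1 UMIs. B cell and neutrophil markers were no higher in alpha-poor barcodes: the 16 B cell genes summed to 668 CPM in alpha-poor and 814 CPM in other PHZ barcodes. The neutrophil genes summed to 1353 and 1775 CPM and the 28 proliferating erythroblast genes to 1651 and 1763 CPM, while Malat1 was at 1189 and 1107 CPM. The monocyte or macrophage, plasma cell and T or NK cell lists were not compared in this way. The mitochondrial share was 1.82% and 2.18% and the ribosomal protein share 9.33% and 6.21%.

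**Figure D1:**
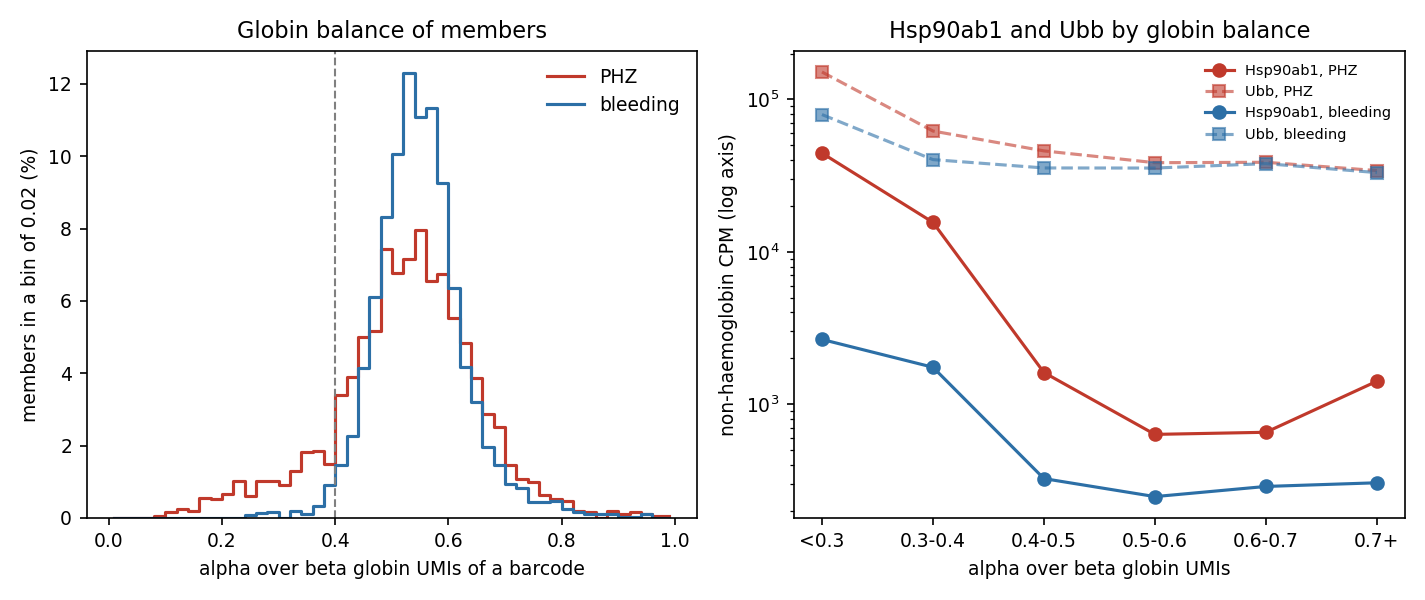
Left, share of members (percent, per bin of 0.02) by alpha over beta globin UMIs of a barcode, up to a ratio of 1, in the PHZ (2539) and bleeding (2991) libraries, with the limit of 0.4 dashed. Right, Hsp90ab1 and Ubb CPM (log axis) of members pooled in bins of that ratio. PHZ Hsp90ab1 was at 44426 CPM below 0.3, at 634 CPM between 0.5 and 0.6 and at 1415 CPM from 0.7.

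Over all members, 173 of 4669 genes (3.71%) were higher and 209 (4.48%) lower in PHZ than in bleeding, by an interval beyond 1.5-fold. The median log2 ratio of all 3274 genes of 10 or more CPM was 0.08. Of these 3274 genes 54.1% were above 1, 156 (4.76%) were beyond 1.5-fold higher and 163 (4.98%) lower, the shares against which the counts of each list below are read. Free RNA differed between the libraries. The level it could give was taken as the background level, scaled by the B, plasma, T or NK and neutrophil markers in members. Of the 173 higher genes 49, and of the 209 lower genes 28, stood at 2 or more times that level, averaged over the libraries. They were 5.04% and 2.88% of the 972 compared genes at such levels. Because of the average, a gene could pass through the library where it was high. Hsp90aa1 stood at 8.62 times that level in PHZ and 1.66 in bleeding, and Atf4 at 2.71 and 0.909. These shares therefore add no separate evidence. The part of free RNA in the ratios of the other genes was not tested. The genes named next were the first 12 in each direction under the rule given with the processing.

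**Figure D2:**
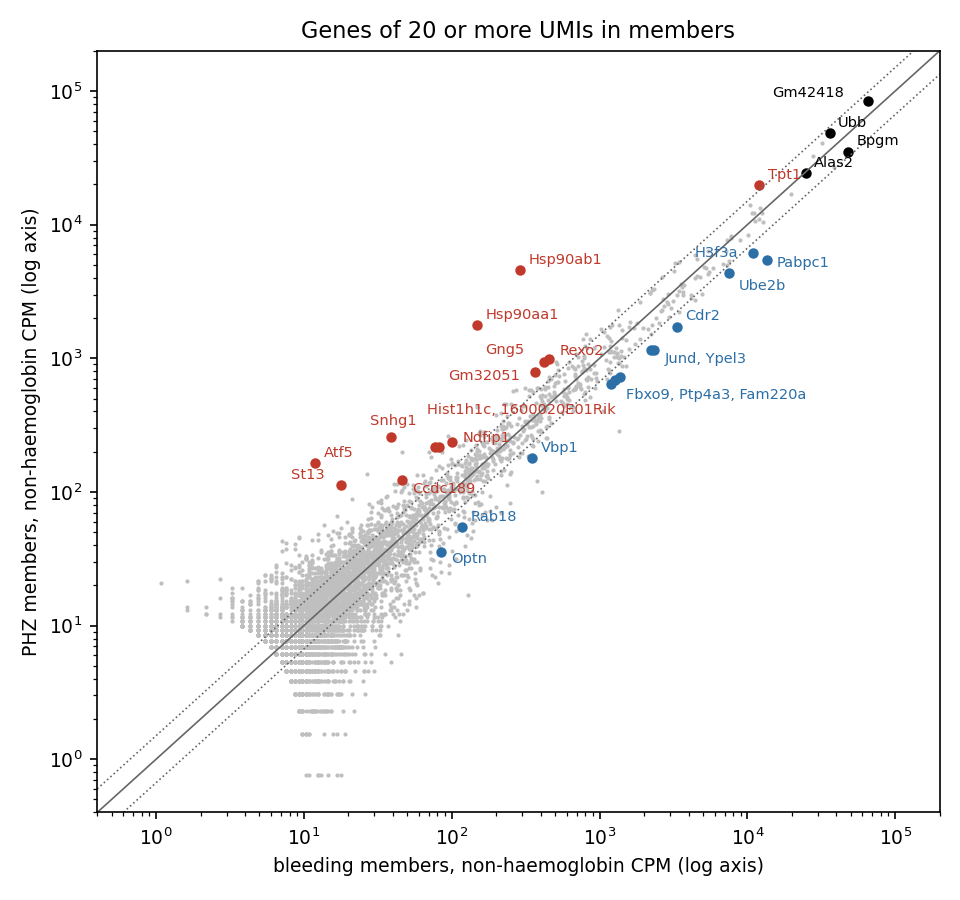
CPM of genes in PHZ members against bleeding members (both log axes), for genes of 20 or more UMIs over both libraries with a UMI in each; the solid line is equality, dotted lines are 1.5-fold, red and blue points are named genes with an interval beyond 1.5-fold and black points other high genes. Hsp90ab1, at 4576 against 289 CPM, lies farthest above the line among the named genes.

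Chaperone and stress-response genes led the higher side. Hsp90ab1 was at 4576 CPM (5952 UMIs) in PHZ and 289 CPM (533 UMIs) in bleeding, a ratio of 15.8 (14.5 to 17.3). Hsp90aa1 was at 1782 and 148 CPM (12.02-fold, 10.6 to 13.7), and St13 at 113 and 17.9 CPM (6.31-fold, 4.30 to 9.502). In bleeding Hsp90ab1, Hsp90aa1 and St13 stood at 2.42, 1.66 and 1.29 times the level that free RNA could give. In PHZ these values were 22.5, 8.62 and 6.35. After subtracting background RNA the PHZ over bleeding ratios were 26.1, 27.1 and 25.3, so the size of these folds depends on free RNA. An Hsp90ab1 UMI was found in 25.5% of PHZ and 13.5% of bleeding barcodes, and in 8.63% and 1.47% after thinning to 1000 UMIs; the B cell gene Cd74, which these cells should lack, was found in 5.95% and 20.3%, and in 0.866% and 2.01% after thinning. Without the alpha-poor barcodes the ratio was 3.51 for Hsp90ab1, 2.28 for Hsp90aa1, 1.45 for St13 and 1.69 for Hspa8. Atf5, a transcription factor of the integrated stress response, the pathway that slows translation when haem is short or proteins misfold, was at 165 CPM (215 UMIs) in PHZ and 11.9 CPM (22 UMIs) in bleeding (13.8-fold, 8.91 to 22.5), and 10.8-fold higher without the alpha-poor barcodes. Within PHZ it was also higher in alpha-poor than in other barcodes, at 407 and 130 CPM (3.12-fold, 2.30 to 4.19). Atf4, the central factor of that response, was at 135 and 26.6 CPM (5.09-fold, 3.69 to 7.13) and 4.36-fold without them, with 243 and 138 CPM in background barcodes. Asns (asparagine synthetase), an ATF4 target, was 4.91-fold higher, and Eif4ebp1, a repressor of cap-dependent translation, 3.88-fold, a direction that turned after thinning to 1000 UMIs (log2 ratio -0.53).

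As a list, all 10 measured integrated stress response genes were above 1, 3 of them beyond 1.5-fold by the interval, with a median log2 ratio of 0.76, against 54.1% above 1, 4.76% higher and a median of 0.08 for all genes. Of the 20 measured heat shock genes 16 were above 1 and 7 beyond 1.5-fold, with a median of 0.63. The heat shock median lay within 1.5-fold of the median of all genes. So did the stress response median with 50 to under 200 genes, and with each barcode scaled alike. Of the 27 stress response genes found, 21 in PHZ and 22 in bleeding were below their level in background barcodes. For the 26 heat shock genes found the numbers were 19 and 21. Other higher genes, at 2.15-fold to 6.64-fold, included Snhg1 (256 and 38.6 CPM, 6.64-fold). In bleeding Snhg1 stood at 1.19 times the level that free RNA could give. The others were Hist1h1c (a linker histone, 216 and 77.6 CPM) and Gng5 (a G protein gamma subunit, 933 and 420 CPM). Also higher were Rexo2 (a mitochondrial oligoribonuclease, 980 and 454 CPM), Ndfip1 (an adaptor of ubiquitin ligases, 238 and 101 CPM), Ccdc189, Gm32051 and 1600020E01Rik.

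Lower genes in PHZ were led by Pabpc1, the poly(A)-binding protein that protects messenger RNA and aids its translation. It was at 5392 CPM in PHZ and 13490 in bleeding, a ratio of 0.3997 (0.389 to 0.410), and was found in 68.5% and 90.7% of barcodes. Jund, an AP-1 transcription factor, was at 1146 and 2352 CPM (0.487, 0.459 to 0.517). H3f3a, which encodes histone H3.3, was at 6153 and 10877 CPM (0.566), and Ube2b, a ubiquitin-conjugating enzyme, at 4358 and 7486 CPM (0.582). Cdr2, Ypel3, Fbxo9, Ptp4a3, Optn, Vbp1, Rab18 and Fam220a (ENSMUSG00000118332) were at 0.4202 to 0.543 of the bleeding level. Removing the alpha-poor barcodes left Pabpc1 at 0.422 and Jund at 0.525.

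The ubiquitin and clearance genes, which remodel a maturing reticulocyte, were among the most abundant in both libraries and moved in no common direction. Ubb was at 48464 CPM in PHZ and 35947 in bleeding (1.35-fold, 1.33 to 1.36), and Mkrn1 at 26991 and 38727 CPM (0.697, 0.688 to 0.706). Ube2l6, a conjugating enzyme for ubiquitin and ISG15, was at 1.09-fold. Of 37 measured genes of the list 19 were above 1, 0 beyond 1.5-fold higher and 3 lower, near the shares over all genes (54.1%, 4.76% and 4.98%). The most abundant autophagy genes were lower in PHZ, with Bnip3l at 0.816, Gabarapl2 at 0.867 and Map1lc3b at 0.883, and 1 of 16 measured genes was beyond 1.5-fold in each direction, also near those shares. Mitochondrial transcripts took 2.13% (2.11 to 2.16) of UMIs outside haemoglobin in PHZ and 2.42% (2.40 to 2.44) in bleeding (0.881-fold), and 2.80% and 2.99% at 300 to under 500 genes; background barcodes held 2.11% and 2.40%.

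Several abundant haem, iron and membrane genes were within 1.5-fold between libraries. Alas2 was at 0.978 (0.964 to 0.992), Fech (ferrochelatase, the last enzyme of haem synthesis) at 0.812, and Slc25a37 (mitoferrin, which brings iron into mitochondria) at 0.800. The haem list had a median log2 ratio of 1.08, with 10 of 14 measured genes above 1 and 7 beyond 1.5-fold higher, but the 4 with most UMIs, Alas2, Fech, Slc25a39 and Urod, were at 0.812 to 0.978, and the summed list was at 0.949. Of its 17 genes 14 in PHZ and 13 in bleeding were below their level in background barcodes. Ftl1 and Fth1, the ferritin light and heavy chains, were at 1.27 and 1.14, and Tfrc, the transferrin receptor of early cells, at 200.7 and 46.2 CPM (4.35-fold, 3.39 to 5.62), below its 906 and 395 CPM in background barcodes. Glrx5, which builds iron-sulphur clusters, was lower in PHZ, at 3014 and 4953 CPM (0.608, 0.586 to 0.632). Of the membrane genes Epb41 was at 0.922 and Slc4a1 (band 3) at 1.01, and 3 of 27 measured genes were beyond 1.5-fold higher, against 4.76% of all genes.

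Of 31 measured translation factor genes 23 were above 1, 3 beyond 1.5-fold higher and 1, Pabpc1, lower. Over all genes the shares were 54.1%, 4.76% and 4.98%. Of the 33 translation factor genes found, 27 in each library were below their level in background barcodes. Ribosomal protein transcripts took 6.61% of UMIs outside haemoglobin in PHZ and 4.92% in bleeding (1.34-fold, 1.33 to 1.35), and Tpt1, a growth-related protein whose messenger RNA has a terminal oligopyrimidine tract, was at 19822 and 12065 CPM (1.64-fold, 1.61 to 1.67). Both were also higher in barcodes with fewer genes, of which PHZ had more, and with barcodes matched in bins of 50 genes Tpt1 was at 1.40-fold. Gm42418 and AY036118, which overlap ribosomal RNA repeats, together took 9.79% and 7.62%. Of the antioxidant genes Prdx1 was at 452 and 226 CPM (2.001-fold, 1.76 to 2.28), Prdx2 at 1.18-fold and Gpx1 at 1.10-fold, while Gclm, the modifier subunit of glutathione synthesis, was at 2732 and 4419 CPM (0.618). Interferon-stimulated transcripts were abundant in both libraries. Rsad2 (viperin) was at 8232 and 7778 CPM, Isg15 (a ubiquitin-like modifier) at 5181 and 3252 (1.59-fold, 1.54 to 1.65), Ifitm3 at 577 and 273 (2.11-fold) and Isg20, an exonuclease, at 5031 and 7293 (0.690); 15 of 19 measured genes of the list were above 1, against 54.1% of all genes, 2 were beyond 1.5-fold higher and 1 lower.

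**Figure D3:**
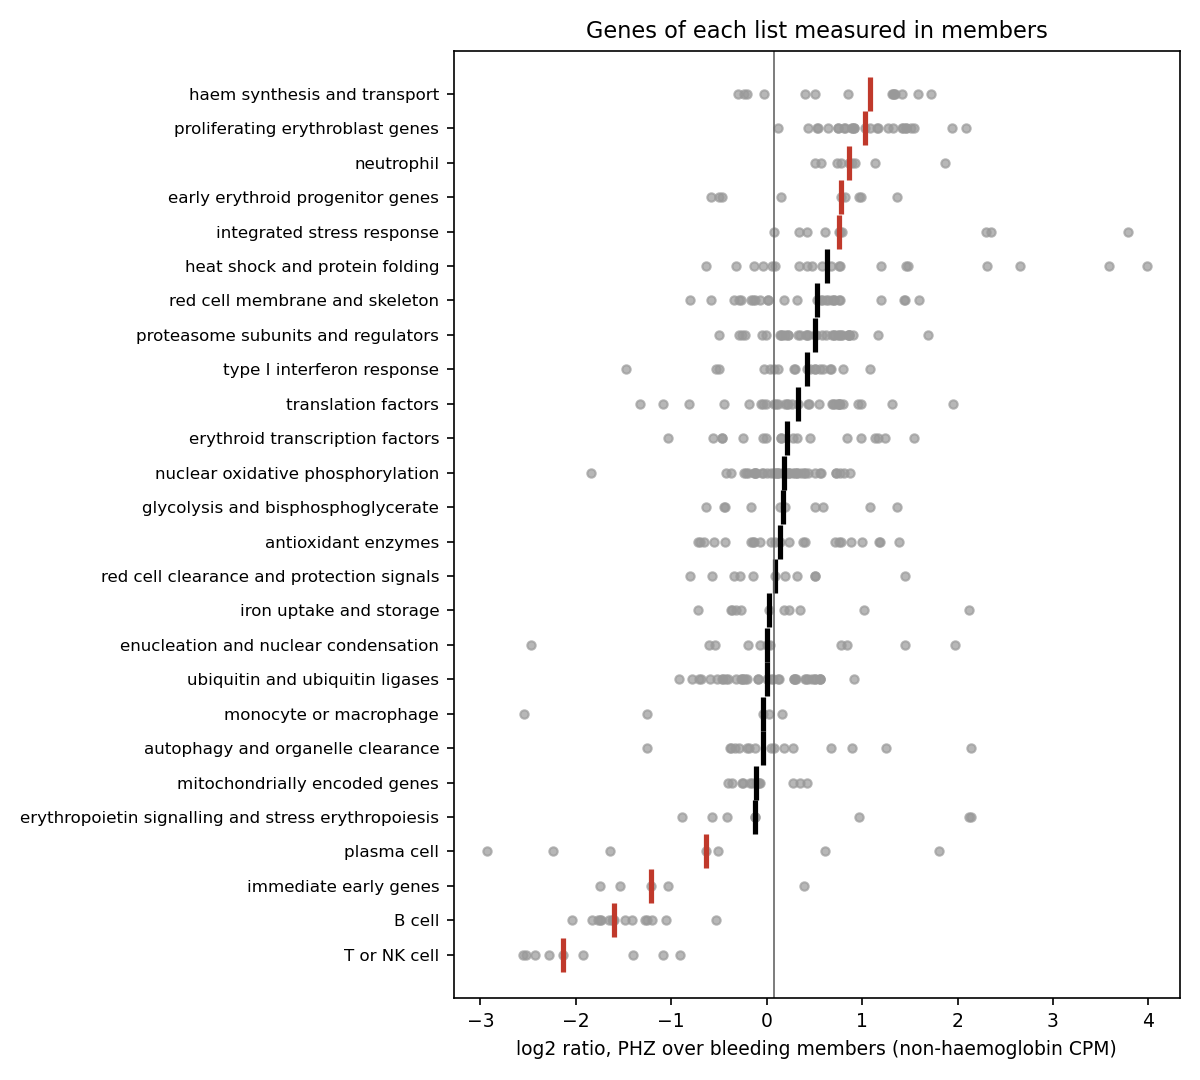
Log2 ratio of PHZ over bleeding members for each measured gene (10 or more CPM) of each list with at least 5 such genes; points are genes, bars list medians, red where the median lies beyond 1.5-fold from the median of all genes (grey line, 0.08). The B cell and T or NK cell medians lie at -1.60 and -2.14 and the haem synthesis median at 1.08.

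B cell and neutrophil markers differed between the libraries in the direction of their free RNA. The 16 B cell genes summed to 796 CPM in PHZ and 2397 in bleeding, with 14 of 16 beyond 1.5-fold lower, and background barcodes held 4437 and 12215 CPM. The 16 neutrophil genes summed to 1721 and 876 CPM, against 8085 and 4134 in background barcodes. Each of the B cell, T or NK cell, neutrophil and proliferating erythroblast genes was below its background level in both libraries, and the median log2 ratios of these lists were -1.60, -2.14, 0.86 and 1.03. The monocyte or macrophage genes summed to 923 and 1009 CPM, against 530 and 1077 in background barcodes, and 10 of 12 plasma cell genes in PHZ and 12 of 12 in bleeding were below their background level. The immediate early list had a median of -1.22 over 5 measured genes, and Jund made most of its UMIs. The early progenitor list had a median of 0.78 over 9, while its summed UMIs, mostly Car2 (carbonic anhydrase 2), were lower in PHZ, at 0.723; Car2 was at 5324 and 7538 CPM (0.706).

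Composition changed along the gene count in both libraries. From barcodes of 50 to under 100 genes to those of 250 to under 300, Gm42418 went from 175633 to 62064 CPM in PHZ and from 129747 to 54858 in bleeding. Car2 went the other way, from 1053 to 9488 CPM in PHZ and from 514 to 11530 in bleeding, and Isg15 from 836 to 7623 and from 1107 to 4439. Bpgm was lowest in the barcodes with fewest genes, at 9229 and 16915 CPM. It was at 27471 and 41567 CPM for 100 to under 150 genes, and at 37892 and 45553 in those with most. Pabpc1 separated the libraries from 100 genes upward, at 4033 against 7285 CPM for 100 to under 150 genes and 7011 against 13526 from 250. PHZ had 21.9% of its members at 100 to under 150 genes and bleeding 5.48%.

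**Figure D4:**
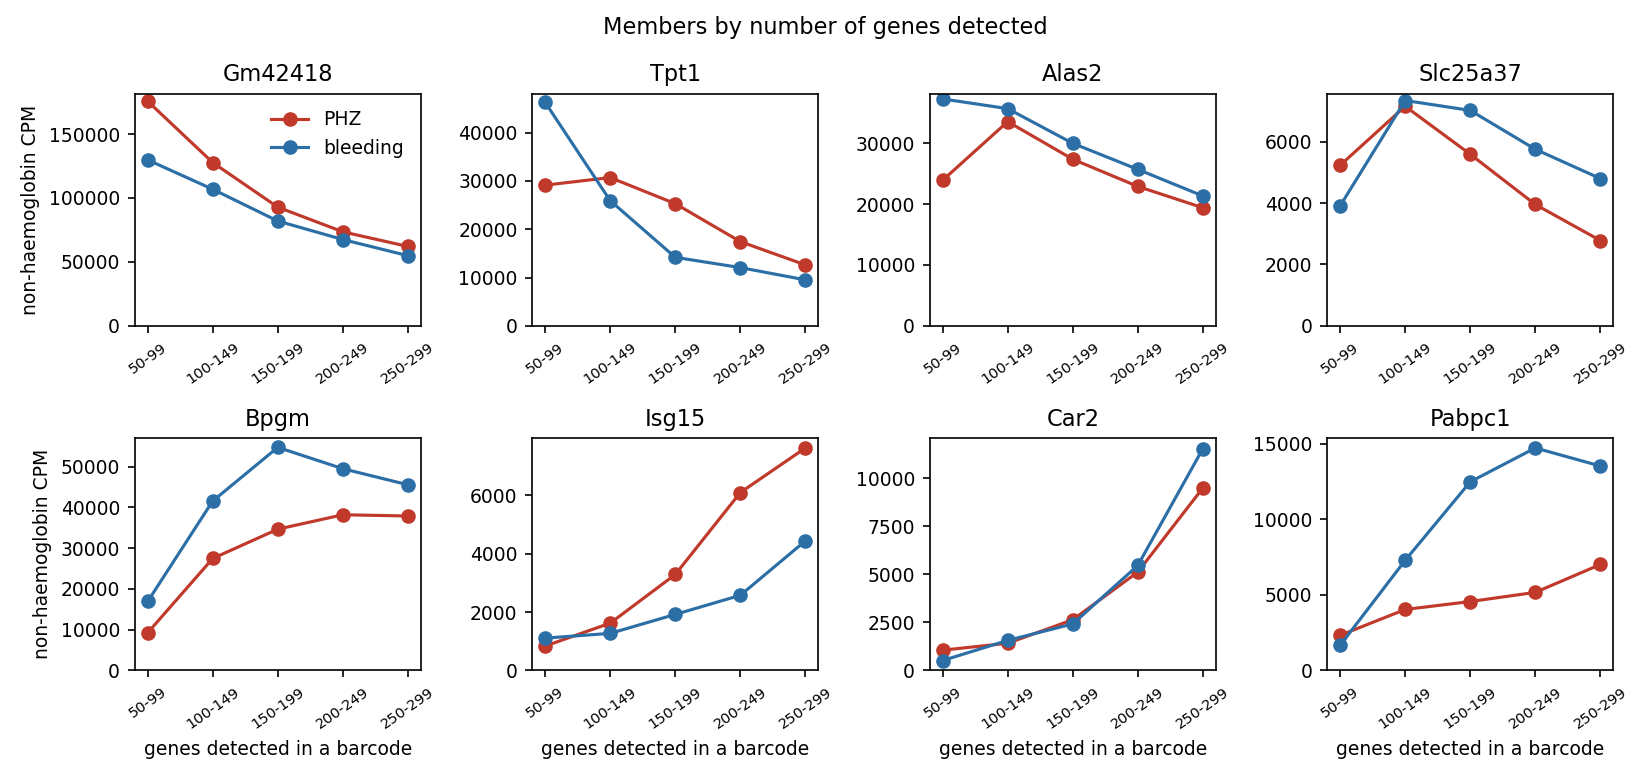
CPM of 8 genes (each on its own axis from 0) in members pooled by genes detected per barcode, PHZ in red and bleeding in blue. Gm42418 is lower and Isg15 and Car2 are higher in the fuller bins of both libraries, and Pabpc1 lies lower in PHZ from 100 genes upward.

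Against haemoglobin-rich barcodes with 300 to under 500 genes, cut from the same range by the rule and given as a description, more genes were lower than higher in members. In PHZ 100 of 3956 genes (2.53%) were higher and 346 (8.75%) lower in members, and in bleeding 13 of 4874 (0.267%) and 226 (4.64%). In both libraries together 4 of 1810 genes were higher (0.221%) and 163 lower (9.01%). Those 4 were Eif1, a translation initiation factor (2.12-fold in PHZ and 1.94-fold in bleeding), Mthfd2 of mitochondrial folate metabolism (2.16 and 3.25), Camk1d (2.44 and 1.68) and Gng5 (2.86 and 1.74). Tpt1 was at 2.63 and 1.43 and Alas2 at 1.51 and 1.44. Lower were Pnp, a purine nucleoside phosphorylase (0.0957 and 0.117), Ppp1r15a, which reverses the integrated stress response (0.186 and 0.199), Eif2ak1, the haem-regulated kinase that starts it (0.228 and 0.205), and Prdx3, a mitochondrial peroxidase (0.260 and 0.236). Hsp90ab1 was 5.64-fold higher in members in PHZ and at 0.833 in bleeding, and Pabpc1 was at 0.513 and 1.06.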

How the data were processed

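The authors deposited whole UMI counts per gene and barcode, unnormalised and with empty droplets, for 32285 genes. Reads were counted with Cell Ranger 7.0.0 against mm10, per the submitters' processing notes, while the file headers name version 4; the handling of introns and multi-mapping reads was not given in the sources used here. The PHZ matrix held 128130213 UMIs and the bleeding matrix 145260780, 1 library each; members held 1300703 and 1841666 UMIs outside haemoglobin. Counts were summed over members and ratios given exact conditional 95% intervals (python 3.11.15, scipy 1.17.1), for genes of 20 or more UMIs. Counts with known folds (4669 genes) were also simulated with Poisson counting error alone, which is what the interval assumes. On these the call of an interval beyond 1.5-fold took 0.134% of unaltered genes, 32.8% of genes altered 2-fold and 98.5% altered 4-fold. Variation between barcodes and between libraries was not simulated, so these are no error rates of the real calls. Named genes were the 20 highest; the first 12 per direction by the interval bound nearest 1, with 50 or more UMIs and CPM and at least the background level in the higher library, without immunoglobulin, T cell receptor, mitochondrial, ribosomal protein or sex-linked genes; per list, the 4 with most UMIs and those with a bound beyond 2-fold and 50 or more UMIs; and 10 per direction against 300 to under 500 genes. Members, lists and tests were chosen with earlier results of these data known. Ifitm3 and Prdx1 were named after their values were seen. No doublet caller was run. Of the gene identifiers 32158 matched GENCODE M21. Alternatives changed the member rule, scaling, background RNA, thinning and single barcodes.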

Additional observations from a re-analysis of the deposited data

How the results depend on the processing

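No paired analysis was possible because each group has 1 library. Some values depended on the gene window. With 50 to under 200 genes the member share was 2.32 times that of bleeding, 75 genes were higher and 74 lower, the mitochondrial ratio was 0.716, alpha over beta was 0.512 in PHZ and 0.519 in bleeding, and the alpha-poor share was 3.24 times that of bleeding. The PHZ minus bleeding haemoglobin share, 0.0664 percentage points, reversed to -0.447 in that window and to -0.478 with libraries matched in bins of 50 genes (1931 barcodes each, added after seeing the data); it was 0.0479 from 500 UMIs, 0.0871 from 2000 UMIs, 0.242 at 90% or more haemoglobin and 0.121 with 100 to under 300 genes. Matched barcodes gave a mitochondrial ratio of 0.918, alpha over beta of 0.535 and 0.542, and an alpha-poor ratio of 5.02. With 100 to under 300 genes the alpha-poor ratio was 11.5 and bleeding alpha over beta 0.549; limits of 0.35 and 0.45 in place of 0.4, also added, gave 14.9 and 2.95. At 90% or more haemoglobin alpha over beta was 0.537 and 0.547. In that setting the PHZ over bleeding ratio fell to 8.69 for Hsp90ab1, 4.31 for Hsp90aa1, 4.08 for St13 and 1.84 for Hspa8. All 24 named genes of the PHZ comparison kept the 1.5-fold bound there. Alpha-poor PHZ barcodes had a median of 92.6% haemoglobin, against 94.5% in the other PHZ barcodes. Medians over barcodes gave a mitochondrial ratio of 0.730 and alpha over beta of 0.534 and 0.545, and leaving out alpha-poor barcodes a mitochondrial ratio of 0.899.

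Scaling each barcode alike gave 301 higher genes, where scaled values were treated as counts. Thinning to 1000 UMIs left 40 higher and 35 lower, with fewer genes compared (805 of 4669). Subtracting background RNA left 108 lower genes and 3 called lists, against 9 before. The heat shock list, not among the 9, was 1 of the 3, with a median log2 ratio 3.61 above that of all genes. After subtraction the haem synthesis list reversed, to -0.23 against the median of all genes, and Igha to a log2 ratio of 0.91; thinning reversed Eif4ebp1 to -0.53. The cause was not tested. The other settings left these counts within 1.5 times. Scaling each barcode alike moved the median log2 ratio of all genes to 0.15, thinning to 0.20 and dropping Gm42418, AY036118, Cmss1 and Gphn from the denominator (added) to 0.12. Of the 24 named genes of the PHZ comparison, 8 missed the 1.5-fold bound with 50 to under 200 genes and 6 after thinning. After thinning 16 kept it, while Atf5 and St13 had 0 bleeding UMIs and gave no ratio. The bound was missed by 2 genes when matched, 1 when scaled alike and 1, St13, without alpha-poor barcodes.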
